A study of Rattus norvegicus with 12 samples.

Results

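The comparison described here is that of FGFR3/4KO RCS with wild-type (WT) RCS while both were exposed to FGF18, 3 libraries against 3, out of the 12 libraries of the series. RCS is a chondrocyte line from a rat chondrosarcoma, and FGFR3/4KO RCS is 1 clone of it in which CRISPR/Cas9 disrupted the genes of FGF receptors 3 and 4. Both lines were kept in 5% adult bovine serum, and the 2 groups of the main comparison received FGF18 overnight, at a dose that the labels give as 50 µg/ml and the methods in ng/ml. The other 6 libraries, WT and FGFR3/4KO RCS with vehicle, show which genotype differences were present without FGF18. Since the knockout is 1 clone, the loss of the receptors and other properties of the clone cannot be told apart in any difference below. Gene activity was read by QuantSeq 3′ mRNA sequencing, and 7378 of 32754 listed genes had enough reads to be tested. Symbols were at hand for 1418 of these, taken in identifier order from the part of the study's gene table used here, so which genes carry a symbol did not depend on their values. The symbols did not include Fgfr3 or Fgfr4, whose transcripts are not analysed here, so the disruption was not checked at the RNA level.

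FGF18 is a secreted growth factor that the perichondrium and other skeletal tissues release, and FGFR3 is its main receptor in growth plate chondrocytes. Receptor activation switches on the Ras and ERK kinase cascade, which induces early response genes and their own feedback inhibitors. Unlike most cells, chondrocytes respond to strong FGFR3 signalling by leaving the cell cycle, and overactive FGFR3 is the cause of achondroplasia. The genotype comparison under FGF18 thus asks which transcripts of a ligand-exposed chondrocyte depend on these receptors.

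The FGF18 libraries held between 846957 and 1196647 reads on genes in WT RCS and between 840149 and 1140741 in FGFR3/4KO RCS. The vehicle libraries held between 373964 and 947730, and the 2 deepest of them, with 925006 and 947730, exceeded the shallowest FGF18 library of each line. Levels are given as CPM, read counts scaled to a common library size by the TMM method, with SD over n = 3 libraries, and 3 reads in 1 FGF18 library correspond to 2.459 to 3.955 CPM, for counting error only. Reads on genes made up 13.35% to 14.41% of all reads in the WT FGF18 libraries and 17.59% to 18.83% in the FGFR3/4KO FGF18 libraries. Reads set aside for low alignment quality made up 77% to 79.2% and 71.18% to 73.82%, and the part of this difference in the results was not tested. Log2 CPM values correlated at 0.948 to 0.966 within WT FGF18, at 0.955 to 0.972 within FGFR3/4KO FGF18 and at 0.88 to 0.897 between them, while FGFR3/4KO FGF18 and WT vehicle libraries correlated at 0.913 to 0.932. Of 10 chondrocyte markers, all had reads in every group, and their summed level was 6970 to 7450 CPM in WT FGF18 and 9550 to 10300 CPM in FGFR3/4KO FGF18. The 13 hepatocyte, 10 neural and 6 immune markers summed to at most 151, 117 and 37.1 CPM in any FGF18 library.

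Under FGF18, 1247 genes were higher and 1253 were lower in FGFR3/4KO RCS than in WT (quasi-likelihood test of edgeR, Benjamini-Hochberg adjusted p, here FDR, under 0.05), which is 16.9% and 17% of the genes tested. The counts of each gene list below stand beside these shares. A change of at least 2-fold was reached by 507 of the higher and 593 of the lower genes, and the median log2 difference over all genes tested was -0.0273. Without FGF18, 590 genes (8%) were higher and 448 (6.07%) were lower in FGFR3/4KO RCS, at the depths given above. Of the genes called without FGF18, 56.6% of the higher ones and 55.1% of the lower ones were called in the same direction under FGF18, and these were 26.8% and 19.7% of the genes called there. The log2 differences of the 2 comparisons, which share no library, correlated across genes with r = 0.447, genes not being independent replicates. The test of the difference between the 2 genotype effects, which shares libraries with both, called 436 genes (5.91%) as more positive and 366 (4.96%) as more negative under FGF18.

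**Figure D1:**
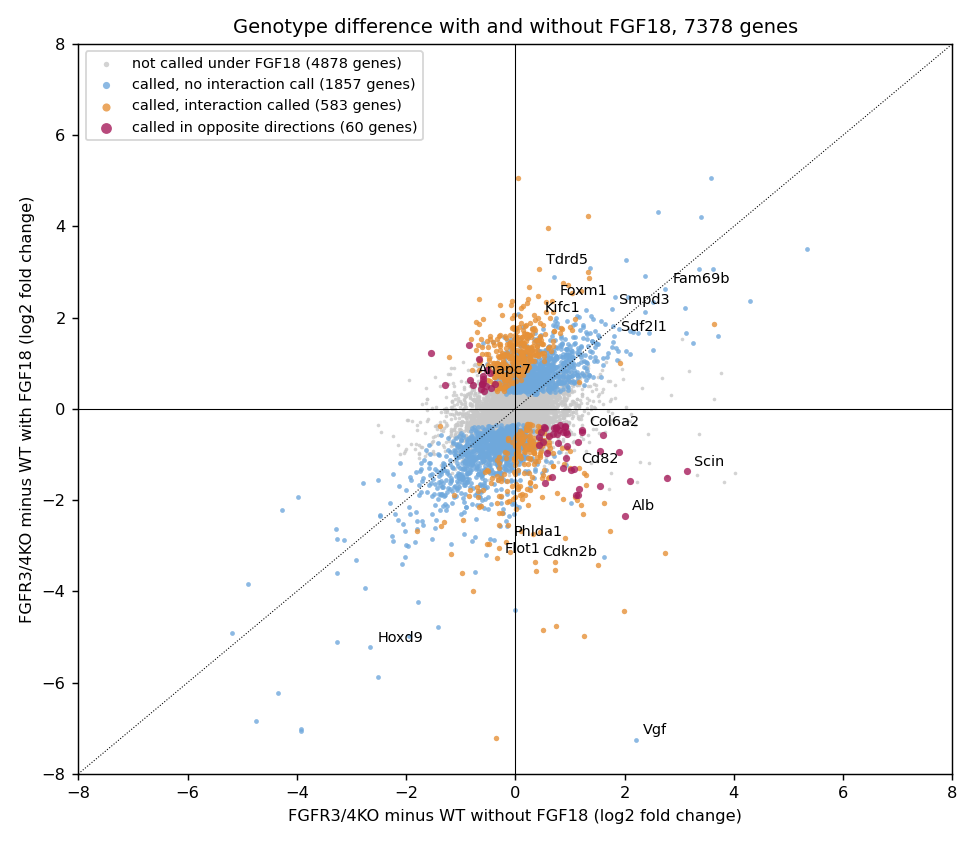
Each point is 1 of 7378 genes, with the log2 fold change of FGFR3/4KO over WT RCS without FGF18 on the horizontal axis and with FGF18 on the vertical axis; the dotted line marks equal differences. Of the 2500 genes called under FGF18, 60 were called in the opposite direction without it, and the fitted value of Vgf, which had 0 reads in the FGFR3/4KO FGF18 libraries, has no set size.

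The 2500 called genes fell into classes by what they did without FGF18. For 528 of them (21.1%) the same direction was called without FGF18 and the 2 effects were not called different. For a further 53 (2.12%) the direction was the same and the effects were called different. For 530 (21.2%) the effects were called different and no difference was called without FGF18, and these were 325 higher and 205 lower genes. The largest class, 1329 genes (53.2%), was called under FGF18 while neither the difference without FGF18 nor that between the effects passed the test, so that for these genes a dependence on FGF18 was not shown in either direction.

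Transcripts of the growth factor response were lower in FGFR3/4KO than in WT RCS under FGF18. Of 18 tested members of a list of growth factor response and feedback genes, 11 were lower and 0 were higher, with a median log2 difference of -1.04, against -0.0273 for all genes. The size fitted for Vgf does not enter this median, since its bound of -2.50, set out below, also lies under -1.04. The difference between the effects with and without FGF18 was called for 6 of the 18 members, each more negative with FGF18. Phlda1, a PH-like domain protein that receptor tyrosine kinases induce, had 1185, 1167 and 1221 CPM in the WT FGF18 libraries and 166, 120.5 and 189.8 CPM in the FGFR3/4KO FGF18 libraries. The groups lay far apart, and FGFR3/4KO RCS under FGF18 overlapped the 118 to 141 CPM of WT RCS with vehicle. The log2 fold change of Phlda1 was -2.91 ± 0.15 (SE; FDR 1.83e-14 by edgeR's quasi-likelihood test), against -0.17 ± 0.17 without FGF18.

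Vgf, a secreted peptide precursor known as a growth factor inducible gene, had 22, 19 and 25 reads in the WT FGF18 libraries and 0 in all 3 FGFR3/4KO FGF18 libraries. Its level was therefore at least 5.65-fold lower in FGFR3/4KO RCS, taking the WT mean of 22.3 CPM against the highest level of 3 reads, 3.955 CPM. Across the vehicle libraries 1 read of Vgf was counted. Feedback inhibitors of the ERK cascade were lower as well. Dusp1, a phosphatase that inactivates MAP kinases, had 17, 13 and 17 reads in WT RCS and 1, 0 and 7 in FGFR3/4KO RCS, a log2 fold change of -2.46 ± 0.65 that became -4.48 without FGFR3/4KO FGF18 replicate 3, the library with 7 reads. Spred1, an inhibitor of Ras signalling, had 25, 16 and 9 reads in WT RCS and 1, 3 and 7 in FGFR3/4KO RCS (-2.08 ± 0.49, FDR 1.45e-03 by the same test). Neither Dusp1 nor Spred1 was called different between the effects with and without FGF18. Gadd45a (-1.57), Btg2 (-1.73) and Btg1 (-1.10), which restrain proliferation, were lower, while the transcription factor genes Myc (0.77) and Etv5 (0.47) did not pass the test. Etv5 did pass, as higher, without WT FGF18 replicate 3 (0.63) or FGFR3/4KO FGF18 replicate 2 (0.69).

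Genes of the cell cycle moved the other way. Of 26 tested members of the cell cycle and mitosis list, 19 were higher and 3 were lower in FGFR3/4KO RCS under FGF18, with a median log2 difference of 1.09, whereas the median without FGF18 was 0.10 with 3 members higher. The 2 effects were called different for 16 members in the positive and 1 in the negative direction. In a bulk library, fewer cells in a phase of the cycle and less RNA per cell cannot be told apart. Foxm1, the transcription factor that drives genes of G2 and mitosis, had 32, 40.2 and 39.4 CPM in WT and 212, 170.2 and 195 CPM in FGFR3/4KO RCS under FGF18. No library of one group came near the other, and with vehicle WT RCS had 134 ± 10.4 CPM and FGFR3/4KO RCS 218 ± 39.6 CPM. Its log2 fold change was 2.37 ± 0.18 with FGF18 (FDR 9.57e-11) and 0.67 ± 0.16 without it (FDR 4.85e-03), both by edgeR's quasi-likelihood test, and the effects differed by 1.70 ± 0.24 (FDR 2.42e-05).

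Kifc1, a kinesin that moves towards microtubule minus ends and focuses spindle poles, had 63.9, 78.4 and 77.6 CPM in WT RCS and 401, 218 and 267 CPM in FGFR3/4KO RCS under FGF18. The FGFR3/4KO libraries were all higher but spread widely, and the log2 fold change was 2.0 ± 0.19. Spc25 (1.64 ± 0.15) and Nuf2 (1.38 ± 0.22), subunits of the NDC80 complex that ties kinetochores to microtubules, were higher as well. Also higher were the kinase genes Cdk1 (1.63 ± 0.19), Cdk2 (1.57 ± 0.29) and Aurkb (1.41 ± 0.45), that of the centromere protein Cenpf (1.43 ± 0.16) and the securin gene Pttg1 (0.98 ± 0.17). The call of Aurkb was lost without WT FGF18 replicate 2 (1.26), FGFR3/4KO FGF18 replicate 1 (1.25) or replicate 2 (1.29). Aurka (0.34), Kif18a (0.83), Cit (0.95) and Cdc27 (-0.40) did not pass the test. Lin54, the DNA-binding subunit of the complexes that repress or activate cell cycle promoters, was no member of the list and had 6.61 ± 1.64 CPM in WT and 26.2 ± 9.16 CPM in FGFR3/4KO RCS (1.93 ± 0.40).

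The 3 lower members of this list were an inhibitor and a pair of cyclin G genes. Cdkn2b, which encodes the CDK4 and CDK6 inhibitor p15, had 293, 343 and 485 CPM in WT RCS under FGF18 and 29, 41.6 and 36.9 CPM in FGFR3/4KO RCS. Without FGF18 both lines were at the low level, WT RCS at 28.5 ± 6.52 CPM and FGFR3/4KO RCS at 34.1 ± 8.13 CPM. Under FGF18 the log2 fold change of Cdkn2b was -3.35 ± 0.20 (FDR 1.48e-12), and it differed by -3.71 ± 0.37 from that without FGF18 (FDR 7.03e-08, both edgeR's quasi-likelihood test). Ccng1 was lower by a log2 fold change of -0.87 ± 0.16 and Ccng2 by -1.72 ± 0.58, the latter on 10 to 18 reads in WT and 4 in each FGFR3/4KO library, and its call was lost without FGFR3/4KO FGF18 replicate 2 (-1.61) or replicate 3 (-1.61). Not every inhibitor was lower. Cdkn1a, which encodes p21, was higher in FGFR3/4KO RCS, with 323 ± 38 CPM against 179 ± 9.69 CPM (0.85 ± 0.14, FDR 2.25e-05 by edgeR's quasi-likelihood test).

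The promoters of the higher genes Kifc1, Cdk1, Spc25 and Nuf2 and of the lower gene Cdkn2b are shown. All of them hold the letters marked below, which 11 of 22 promoters of the list hold, so they do not stand for the whole list. They are RefSeq sequences of the assembly GRCr8, 250 bases before and 50 after the annotated start, 5′ to 3′ on the gene's strand, and 1070 of the 1418 named genes matched 1 promoter each. Capitals mark the letters TTTGAA or their reverse complement, the core of the element known as the cell cycle genes homology region (CHR).
Kifc1, chr20:5000679-5000978, plus strand: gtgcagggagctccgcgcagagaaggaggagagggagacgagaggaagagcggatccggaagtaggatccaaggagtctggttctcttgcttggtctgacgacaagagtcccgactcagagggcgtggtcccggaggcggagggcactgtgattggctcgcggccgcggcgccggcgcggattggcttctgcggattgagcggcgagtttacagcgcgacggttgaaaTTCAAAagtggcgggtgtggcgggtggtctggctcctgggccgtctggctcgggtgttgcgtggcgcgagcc
Cdk1, chr20:19265043-19265342, plus strand: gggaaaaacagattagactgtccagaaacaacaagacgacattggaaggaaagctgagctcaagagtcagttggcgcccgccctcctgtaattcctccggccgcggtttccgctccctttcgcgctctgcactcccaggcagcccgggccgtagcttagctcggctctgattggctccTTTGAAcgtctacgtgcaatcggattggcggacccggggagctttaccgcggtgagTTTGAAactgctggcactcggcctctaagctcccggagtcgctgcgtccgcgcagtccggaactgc
Spc25, chr3:74396669-74396968, minus strand: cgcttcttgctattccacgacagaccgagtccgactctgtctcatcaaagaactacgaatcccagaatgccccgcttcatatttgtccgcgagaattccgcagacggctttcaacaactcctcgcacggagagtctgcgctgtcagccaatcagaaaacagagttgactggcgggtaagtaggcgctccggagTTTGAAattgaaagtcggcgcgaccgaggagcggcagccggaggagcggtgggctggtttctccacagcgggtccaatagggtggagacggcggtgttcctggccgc
Nuf2, chr13:84255549-84255848, minus strand: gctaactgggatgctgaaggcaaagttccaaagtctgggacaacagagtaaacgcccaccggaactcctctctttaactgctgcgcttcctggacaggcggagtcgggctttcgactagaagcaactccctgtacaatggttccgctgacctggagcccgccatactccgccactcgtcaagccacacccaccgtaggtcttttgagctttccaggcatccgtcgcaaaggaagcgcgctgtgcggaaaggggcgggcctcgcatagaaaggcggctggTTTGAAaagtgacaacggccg
Cdkn2b, chr5:109134806-109135105, minus strand: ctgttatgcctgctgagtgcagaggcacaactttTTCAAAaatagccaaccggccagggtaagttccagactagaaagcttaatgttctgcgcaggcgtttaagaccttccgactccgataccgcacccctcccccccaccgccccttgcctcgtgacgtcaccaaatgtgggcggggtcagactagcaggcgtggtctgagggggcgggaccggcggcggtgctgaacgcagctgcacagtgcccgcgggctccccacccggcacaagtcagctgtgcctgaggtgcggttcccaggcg
The match lies 22 bases before the start in Kifc1, at 72 and 16 bases before it in Cdk1, at 57 in Spc25 and at 216 in Cdkn2b, and in Nuf2 it lies after the start. Of 22 promoters of the cell cycle and mitosis list, 11 (50%) held TTTGAA on either strand, among them the lower gene Cdkn2b, against 18.3% of all 33469 promoters of that length in the table. The share was 17.9% of 28 promoters of the DNA replication and repair list and 14.3% of 14 of the growth factor list. Of promoters of named genes it was 13.7% for the higher, 10.2% for the lower and 10.3% for those not called. The other motifs searched on both strands overlapped none of the capitals in these 5 promoters. TGANTCA, bound by AP-1, stood in 4.41% of the promoters of higher genes, 5.99% of lower genes and 7.33% of all promoters. CCGGAAG, bound by ETS factors, stood in 23.5%, 16.2% and 8.75%, and CACGTG, an E-box, in 11.8%, 7.78% and 6.42%. Among promoters of tested genes that were not called, TGANTCA stood in 4.29%, CCGGAAG in 22.7% and CACGTG in 12.6%, so that the higher genes differed little from the uncalled ones in these 3 motifs. These are counts of letters in a window and no measure of binding.

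Genes that copy and repair DNA were higher in FGFR3/4KO RCS under FGF18 for 12 of 30 tested members and lower for 1, with a median log2 difference of 0.57, compared with -0.19 without FGF18. The effects were called different for 9 members, each more positive with FGF18. Mcm4, a subunit of the replicative helicase, had 64.8, 74.6 and 69 CPM in WT and 212, 208 and 151 CPM in FGFR3/4KO RCS, a log2 fold change of 1.45 ± 0.16. The helicase subunits Mcm6 (0.91 ± 0.14) and Mcm7 (0.56) were higher by less, Mcm7 without a call when WT FGF18 replicate 1 (0.49) or FGFR3/4KO FGF18 replicate 3 (0.46) was left out. Rfc3 (1.12) and Rfc4 (1.30), of the clamp loader, and the histone chaperones Asf1b (1.33) and Chaf1b (1.17) were higher too, as was Rad18 (1.51), the ubiquitin ligase that starts bypass of damaged bases. In Rad18, FGFR3/4KO FGF18 replicate 1, at 58 CPM, was well below the other two, at 131 and 134 CPM. Pole4, a small subunit of DNA polymerase epsilon, was lower (-0.70) and equally lower without FGF18 (-0.74).

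**Figure D2:**
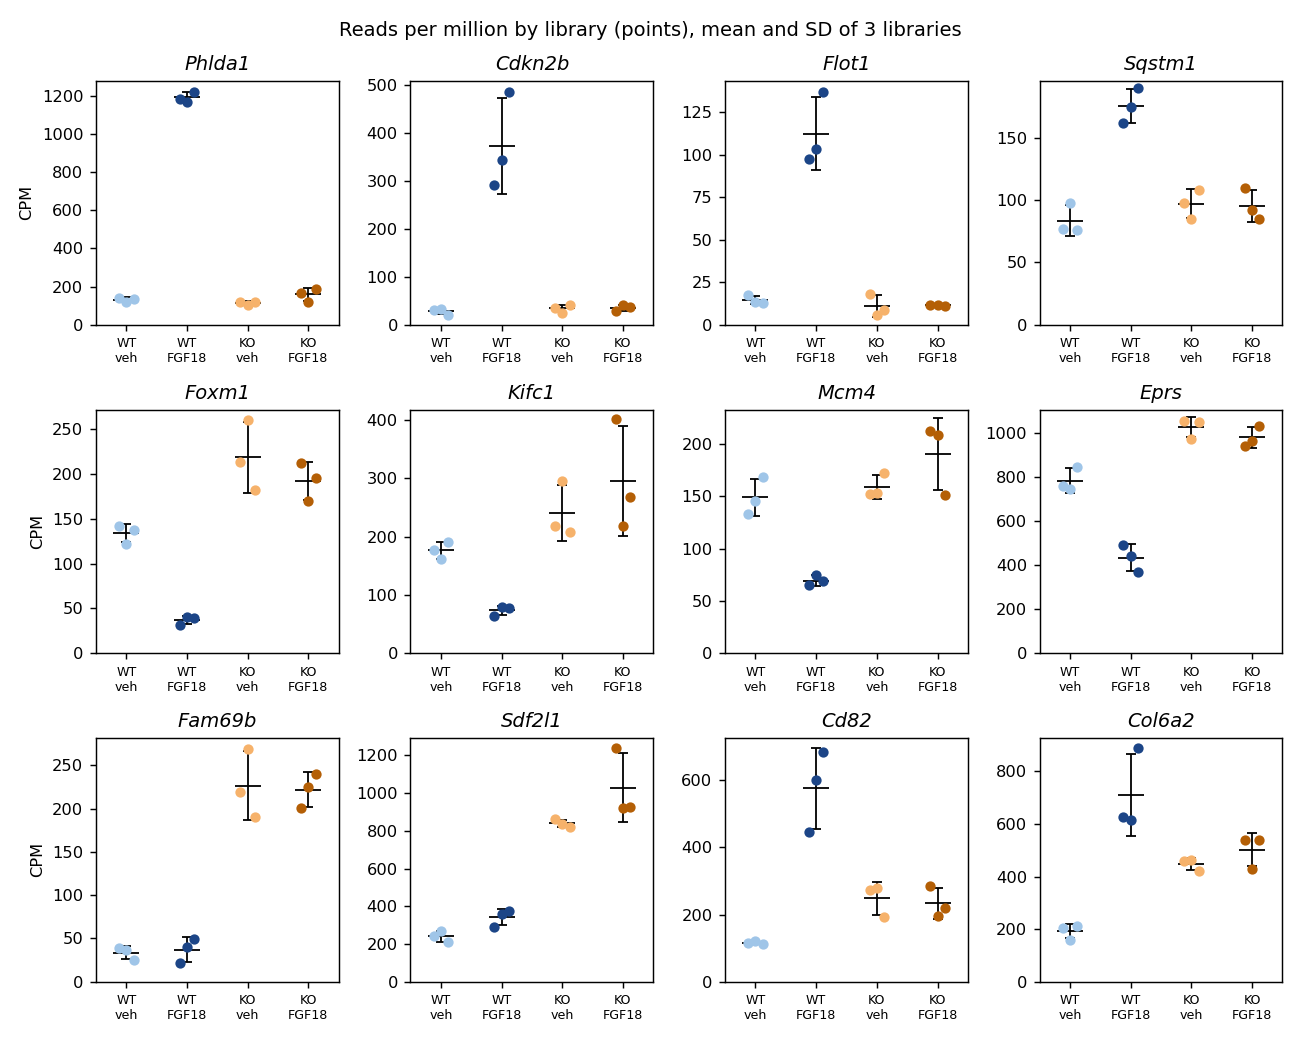
Levels (CPM, linear axes from 0) of 12 genes in each library (points) of WT and FGFR3/4KO RCS with vehicle (veh) or FGF18, with the mean and SD of 3 libraries. In Phlda1, Cdkn2b, Flot1 and Sqstm1 the WT FGF18 libraries lie above every other library, and in Foxm1, Kifc1, Mcm4 and Eprs they lie below every other library. Fam69b and Sdf2l1 separate the lines in both media, and in Cd82 and Col6a2 FGFR3/4KO RCS lies below WT RCS with FGF18 and above it with vehicle.

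Genes of ribosome assembly and tRNA charging, which set the capacity for protein synthesis, were higher for 9 of 34 tested members and lower for 2. The shares over all genes were 16.9% and 17%, and the list's median log2 difference was 0.14. Without WT FGF18 replicate 1 the number higher was 6. Lyar, a nucleolar protein of ribosome maturation, had 89 ± 3.45 CPM in WT and 294 ± 50.5 CPM in FGFR3/4KO RCS under FGF18 (1.73 ± 0.16), and it was also higher without FGF18 (1.03 ± 0.16). Eprs, which charges the tRNAs of glutamate and proline, had 490.2, 441 and 367 CPM in WT and 940.0, 963 and 1030.0 CPM in FGFR3/4KO RCS. Its log2 fold change was 1.17 ± 0.12, and that of the valine enzyme gene Vars was 1.2 ± 0.19. The effects with and without FGF18 differed for both, by 0.78 ± 0.17 in Eprs and 0.93 ± 0.27 in Vars, and for Vars this call was lost without WT vehicle replicate 2 (0.79), WT FGF18 replicate 2 (0.78) or FGFR3/4KO vehicle replicate 1 (0.83).

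Genes of the extracellular matrix moved in both directions. Of 21 tested members of the cartilage and matrix list, 7 were higher and 8 were lower in FGFR3/4KO RCS under FGF18, with a median log2 difference of 0.15. The higher members included 3 small leucine-rich proteoglycans, which coat and organise collagen fibrils. Fmod (fibromodulin) had 290.2, 269 and 342 CPM in WT and 1186, 923 and 1012 CPM in FGFR3/4KO RCS, with no overlap (1.79 ± 0.13, FDR 7.01e-11 by edgeR's quasi-likelihood test). It was higher without FGF18 by 1.01 ± 0.13, and the effects differed by 0.79 ± 0.19. Optc (opticin, 1.93 ± 0.35) and Prelp (1.22) were the other 2. Sox9, the master transcription factor of chondrocytes, had 1374, 1262 and 1438 CPM in WT and 1896, 2055 and 1967 CPM in FGFR3/4KO RCS (0.54 ± 0.12, FDR 7.71e-04).

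The lower matrix genes included collagens. Col5a2, a chain of the fibril-forming type V collagen, had 73, 57 and 19 reads in WT RCS and 9, 1 and 1 in FGFR3/4KO RCS under FGF18, a log2 fold change of -3.58 ± 0.52 that was -5.46 without FGFR3/4KO FGF18 replicate 1. Chad (chondroadherin), a cartilage protein that binds collagen and integrin, was low in all groups and lower in FGFR3/4KO RCS with FGF18 (-1.42 ± 0.42) and without it (-2.23 ± 0.68). The call of Chad under FGF18 was lost without FGFR3/4KO FGF18 replicate 2 (-1.06), and that without FGF18 was lost without WT vehicle replicate 1 (-1.97), FGFR3/4KO vehicle replicate 1 (-2.60) or replicate 3 (-1.76). Mia (-0.72), a secreted cartilage protein, and Plod3 (-0.97), a lysyl hydroxylase of collagen, were lower with FGF18 and, by less, without it. Among 15 tested genes of glycosaminoglycan synthesis 2 were higher and 3 lower, close to the 16.9% and 17% of all genes. Those called included the xylose kinase gene Fam20b (0.97 ± 0.13) and the xylosyltransferase gene Xylt2 (-0.76 ± 0.21), whose products both act on the linkage of the sugar chain to its core protein.

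**Figure D3:**
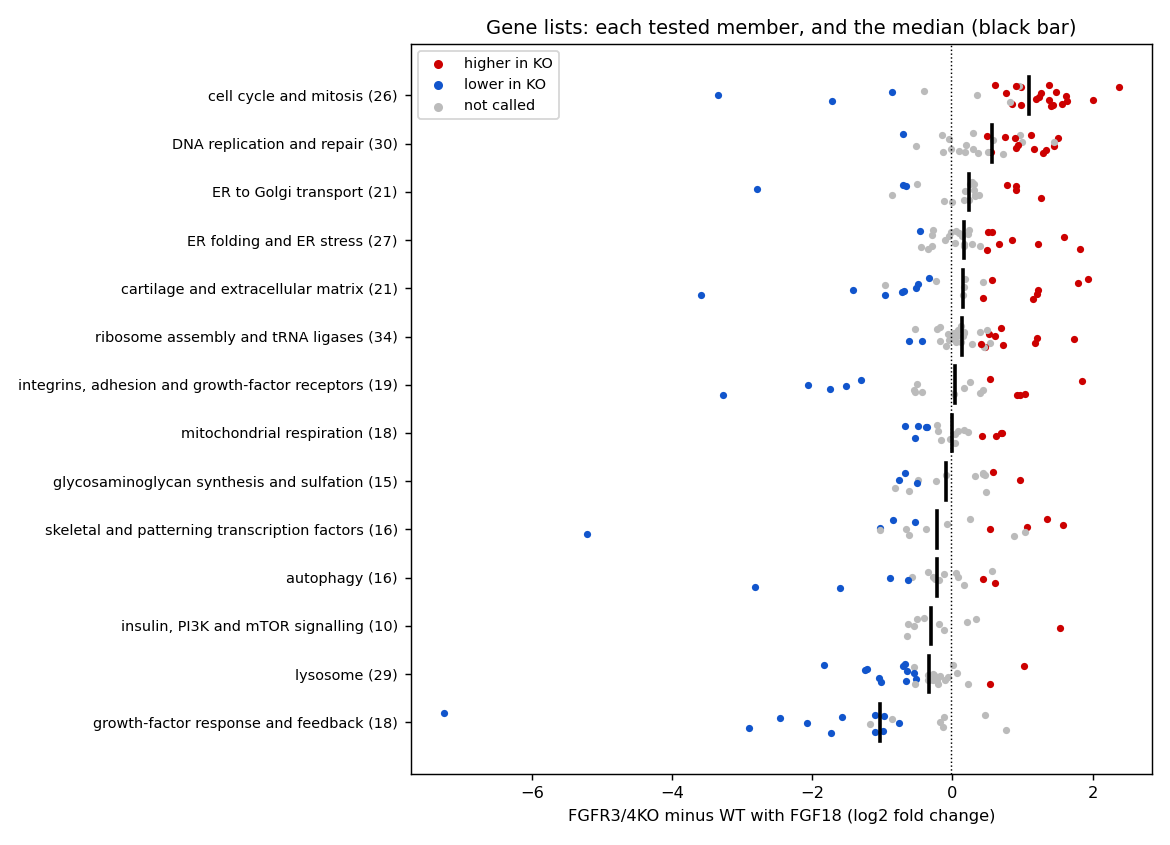
Log2 fold change of FGFR3/4KO over WT RCS under FGF18 for every tested member of 14 gene lists (points, coloured by the call; number tested in parentheses), with each list's median as a black bar and the median of all genes as a dotted line. The growth factor list has the lowest median (-1.04) and the cell cycle list the highest (1.09). The point farthest to the left is the fitted value of Vgf, whose size depends on the model because FGFR3/4KO RCS had 0 reads.

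Surface and adhesion genes held some of the largest differences. Of 19 tested integrin, adhesion and receptor genes, 5 were higher and 5 were lower, beside 16.9% and 17% of all genes. Their median log2 difference was 0.03. A filter of 1 CPM in 3 libraries admitted further members of the 42 on this list, and with it 11 were lower, not out of the same 19. Flot1 (flotillin 1), a scaffold of membrane microdomains, had 97.5, 103 and 137 CPM in WT and 11.9, 11.5 and 11.1 CPM in FGFR3/4KO RCS under FGF18. The FGFR3/4KO values were tightly grouped at the level that both lines had with vehicle, 14.7 ± 2.38 CPM in WT and 10.9 ± 6.63 CPM in FGFR3/4KO RCS. Its log2 fold change was -3.27 ± 0.27 (FDR 3.27e-10 by edgeR's quasi-likelihood test). Alcam, a cell adhesion molecule, followed the same pattern, with 95.2 ± 3 CPM in WT and 22.9 ± 5.29 CPM in FGFR3/4KO RCS (-2.06 ± 0.26), and its difference between effects, -1.72, was not called without FGFR3/4KO vehicle replicate 1 (-1.06). Gja1 (-1.53), the gap junction protein connexin 43, was lower in both media, and Itgb5 (0.93) and Pdgfa (0.96) were higher in both.

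Lysosomal genes were lower for 11 of 29 tested members and higher for 2, with a median log2 difference of -0.34 under FGF18 and 0 without it. The number lower was 6 without FGFR3/4KO FGF18 replicate 2. Mcoln1, the lysosomal calcium channel TRPML1, had 59, 67.9 and 62.8 CPM in WT and 35.6, 31.9 and 26.7 CPM in FGFR3/4KO RCS (-1.02 ± 0.22, FDR 6.60e-04 by edgeR's quasi-likelihood test). Cpq, a lysosomal carboxypeptidase, was lower with FGF18 (-1.83 ± 0.30) and without it (-1.61 ± 0.37). Borcs6 (-1.21 ± 0.28), of the complex that positions lysosomes, and Atp6v1a (-0.70), of the proton pump, were also lower. Gusb, the beta-glucuronidase gene, had 449, 726 and 877 CPM in WT and 568, 397 and 462 CPM in FGFR3/4KO RCS, groups that overlapped. Its difference of -0.52 ± 0.17 was not called without WT FGF18 replicate 2 (-0.44) or replicate 3 (-0.27), nor without FGFR3/4KO FGF18 replicate 2 (-0.40) or replicate 3 (-0.46).

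Lamp2, a major protein of the lysosomal membrane, and Psap, the precursor of the sphingolipid activators, did not pass the test under FGF18, at -0.34 ± 0.25 and -0.23 ± 0.11. Both were higher in FGFR3/4KO RCS without FGF18, by 1.05 ± 0.31 and 0.50 ± 0.11. In Psap the level was 853 ± 46.1 CPM in WT RCS with vehicle, the lowest of the 4 groups, and 1207 ± 38.9, 1237 ± 43.4 and 1447 ± 135 CPM in FGFR3/4KO vehicle, FGFR3/4KO FGF18 and WT FGF18. The effects with and without FGF18 differed for Psap by -0.73 ± 0.16 (FDR 2.90e-03) and for Lamp2 by -1.39 ± 0.39 (FDR 0.0208, both edgeR's quasi-likelihood test). For Lamp2 this call was lost without WT vehicle replicate 1 (-1.08), WT FGF18 replicate 2 (-1.30) or FGFR3/4KO FGF18 replicate 2 (-1.27), and the call without FGF18 was lost without WT vehicle replicate 1 (0.74), FGFR3/4KO vehicle replicate 1 (1.05) or replicate 3 (1.10).

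Of 16 tested autophagy genes 4 were lower and 2 were higher under FGF18, beside 17% and 16.9% of all genes, so the counts set this small list little apart. The 2 higher calls, Stx17 (0.60) and Atg12 (0.43), were both lost without FGFR3/4KO FGF18 replicate 2 (0.61 and 0.39). That of Stx17 was also lost without FGFR3/4KO FGF18 replicate 1 (0.61) or WT FGF18 replicate 3 (0.40), and that of Atg12 without WT FGF18 replicate 2 (0.43). Sqstm1, which encodes the cargo receptor p62, had 162, 175 and 189.7 CPM in WT and 109, 92.2 and 84.8 CPM in FGFR3/4KO RCS under FGF18. The groups did not overlap, the vehicle libraries of both lines had 76 to 108 CPM, and the log2 fold change under FGF18 was -0.89 ± 0.16. Flcn (folliculin), which links amino acid supply to mTORC1 and TFEB, had 40.3 ± 0.941 CPM in WT and 13.4 ± 2.62 CPM in FGFR3/4KO RCS (-1.60 ± 0.28), and WT RCS with vehicle had 11.5 ± 0.564 CPM. The effects with and without FGF18 differed in Flcn by -1.87 ± 0.47, a call lost without FGFR3/4KO vehicle replicate 1 (-1.70). Tecpr1, which tethers autophagosomes to lysosomes, had 59, 62 and 21 reads in WT and 0, 8 and 11 in FGFR3/4KO RCS (-2.82 ± 0.44).

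Of 27 tested folding and stress genes of the endoplasmic reticulum (ER), 8 were higher, 1 was lower and 18 were not called under FGF18, with a median log2 difference of 0.17. Without FGF18, 5 were higher and 1 was lower. Sdf2l1, an ER protein that acts with the chaperone BiP, had 293, 358 and 376 CPM in WT and 1241, 921 and 924 CPM in FGFR3/4KO RCS under FGF18, and 241 ± 27.4 and 839.9 ± 19.4 CPM with vehicle. The log2 fold change was 1.59 ± 0.14 with FGF18 and 1.81 ± 0.15 without it. Dnajb11, the co-chaperone ERdj3 that forms a complex with Sdf2l1, was higher by 1.22 ± 0.14 and 0.68 ± 0.14. Ddit3 (0.17), Dnajb9 (0.27) and Eif2ak3 (0.24), markers and sensors of ER stress, did not pass the test. Of 21 tested genes of ER to Golgi transport 4 were higher and 3 were lower, close to the 16.9% and 17% of all genes. Among them were the KDEL receptor gene Kdelr2 (0.90 ± 0.21) and the cargo receptor gene Tmed4 (-2.79 ± 0.50), the latter on 18 to 27 reads in WT and 2 to 4 in FGFR3/4KO RCS. Tmed4 was also lower without FGF18 (-2.25 ± 0.51), and its 2 effects were not called different.

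Several of the most different named genes were called in the same direction without FGF18. Fam69b, a kinase-like protein of the ER, had 21.3, 40.2 and 49.3 CPM in WT and 200.4, 225 and 240.4 CPM in FGFR3/4KO RCS under FGF18, a log2 fold change of 2.63 ± 0.21, and 2.75 ± 0.23 without FGF18. Smpd3, a neutral sphingomyelinase needed for bone and cartilage mineralisation in mice, had 143 ± 13.8 and 654 ± 59 CPM (2.19 ± 0.13, and 1.77 ± 0.13 without FGF18). Tgfb2, a growth factor of the TGF-beta family, had 119 ± 31.4 and 430.5 ± 99.8 CPM (1.85 ± 0.17, and 1.25 ± 0.17). Traf2, an adaptor of TNF receptors, was higher by 1.69 ± 0.25 and 1.29 ± 0.25. Map7d2, a microtubule-associated protein, had 7, 3 and 1 reads in WT and 13, 24 and 19 in FGFR3/4KO RCS under FGF18, and 1 read in WT against 21 in FGFR3/4KO RCS over the vehicle libraries.

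On the lower side, Hoxd9, a homeobox gene of limb and trunk patterning, had 51, 73 and 46 reads in WT and 3, 0 and 1 in FGFR3/4KO RCS under FGF18 (-5.22 ± 0.53). Without FGF18 it had 12, 12 and 9 reads in WT and 0, 0 and 4 in FGFR3/4KO RCS, a log2 fold change of -2.66 ± 0.72 that was -6.59 without FGFR3/4KO vehicle replicate 3 and was not called without replicate 1 (-2.10). Sptlc3, a subunit of the enzyme that starts sphingolipid synthesis, had 17, 18 and 14 reads in WT and 2, 7 and 1 in FGFR3/4KO RCS (-2.21 ± 0.50). With vehicle it had 55 reads in WT and 2 in FGFR3/4KO RCS, a ratio of 21.7 scaled by library size (95% exact counting interval 5.74 to 184). Pygl, the liver form of glycogen phosphorylase, was lower by -2.30 ± 0.44 with FGF18 and -1.53 ± 0.43 without it, the latter not called without WT vehicle replicate 2 (-1.46), FGFR3/4KO vehicle replicate 1 (-1.30) or replicate 3 (-1.69). P2rx4, an ATP-gated channel, was lower by -2.11 ± 0.30 and -1.47 ± 0.39, the latter not called without WT vehicle replicate 2 (-1.30).

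For other large differences under FGF18, the genotype difference without it did not pass the test. Tdrd5, a tudor domain protein known from the germ line, had 9.02, 3.83 and 3.7 CPM in WT and 65.9, 35.5 and 49.7 CPM in FGFR3/4KO RCS under FGF18. The WT FGF18 libraries were the low ones, since with vehicle WT RCS had 31.4 ± 4.21 CPM and FGFR3/4KO RCS 43 ± 4.57 CPM. The vehicle libraries of the lines did not overlap either, though the difference of 0.44 ± 0.29 did not pass the test. With FGF18 the log2 fold change of Tdrd5 was 3.06 ± 0.34, and the effects differed by 2.62 ± 0.46. Celf5, an RNA-binding protein, had 43.1 ± 8.6 CPM in WT and 4.63 ± 0.681 CPM in FGFR3/4KO RCS (-3.17 ± 0.34). Without FGF18 its libraries did not overlap either, at 16.6 ± 3.12 and 7.58 ± 0.964 CPM (-1.18 ± 0.41), and that difference was called with upper-quartile normalization (-1.21). Slc4a4, a bicarbonate cotransporter, had 37, 21 and 15 reads in WT and 4, 2 and 3 in FGFR3/4KO RCS (-2.88 ± 0.47). Wfs1 (wolframin), an ER membrane protein, was higher (1.81 ± 0.33), and the groups did not overlap with FGF18 but did without it, where a difference was called only when WT vehicle replicate 1 was left out (1.21). Over all genes tested, the 3 libraries of FGFR3/4KO RCS lay above the 3 of WT RCS under FGF18 in 20.5% and below them in 21.5%.

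Transcription factors of skeletal patterning were called higher for 4 and lower for 4 of 16 tested members, beside 16.9% and 17% of all genes, so the counts set this small list little apart. Besides Sox9 and Hoxd9 these included Runx1, a runt factor of cartilage and blood, at 8.48 ± 0.242 CPM in WT and 21.9 ± 3.23 CPM in FGFR3/4KO RCS under FGF18 (1.36 ± 0.36), and Tead4, a partner of YAP, at 5.74 ± 3.28 and 18.4 ± 4.13 CPM (1.58 ± 0.44). Mitochondrial respiration genes were higher for 4 and lower for 5 of 18, with a median of 0. Atp5b, the beta chain of ATP synthase, was higher (0.62 ± 0.11) and Ndufa4, a subunit of the respiratory chain, was lower (-0.68 ± 0.15). Of 10 tested insulin, PI3K and mTOR genes 1 was called, the adaptor gene Sh2b2, with 23.8, 42.1 and 35.7 CPM in WT and 104, 94.8 and 92.1 CPM in FGFR3/4KO RCS (1.53 ± 0.21). Both lines with vehicle had 61 CPM or more, above all 3 WT FGF18 libraries.

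In 60 genes the genotype difference was called in opposite directions with and without FGF18, and 18 of them were higher under FGF18 and 42 lower. Cd82, a tetraspanin of the cell surface, had 445, 599.8 and 683 CPM in WT and 286, 196 and 218 CPM in FGFR3/4KO RCS under FGF18. With vehicle WT RCS had 114, 122 and 113 CPM and FGFR3/4KO RCS had 274, 280.4 and 192 CPM. FGFR3/4KO RCS thus stood at a like level in both media, below WT RCS in one (-1.31 ± 0.17) and above it in the other (1.07 ± 0.19). Col6a2, a chain of type VI collagen of the pericellular matrix, showed the same order, at 710.1 ± 157 CPM in WT and 503 ± 64 CPM in FGFR3/4KO RCS with FGF18, and 192 ± 27.8 and 448 ± 22.4 CPM with vehicle.

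**Figure D4:**
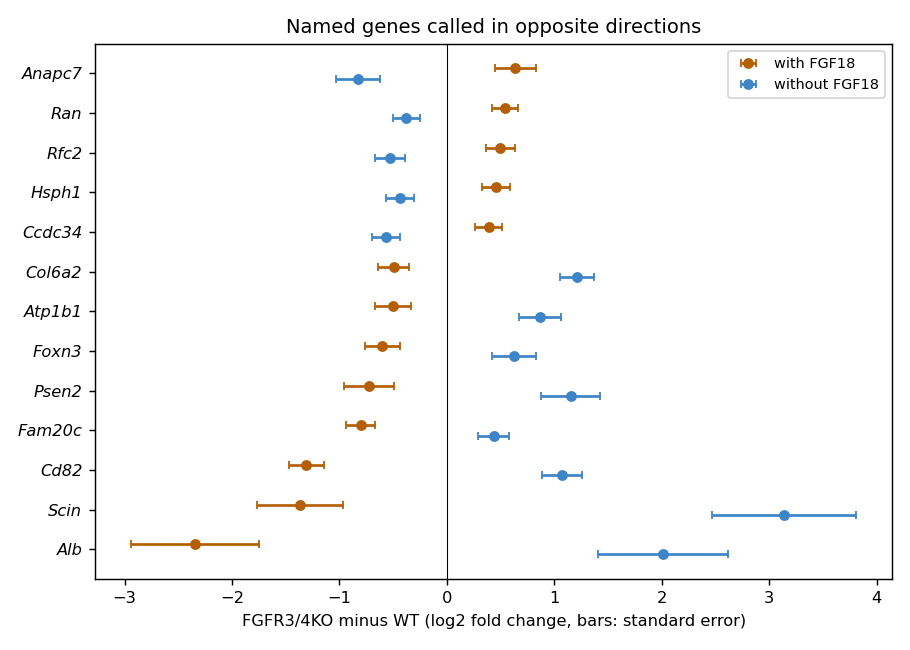
Log2 fold change of FGFR3/4KO over WT RCS with FGF18 (orange) and without it (blue) for the 13 named genes called in opposite directions, with standard errors as bars. The first 5 genes from the top were higher with FGF18 and lower without it, and the other 8 were lower with FGF18 and higher without it.

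The 13 named genes of this kind also included Ran, the GTPase of nuclear transport, Rfc2, of the clamp loader, Anapc7, of the anaphase-promoting complex, the chaperone gene Hsph1, and Ccdc34, all higher under FGF18. Fam20c, the Golgi kinase of secreted proteins, Foxn3, a forkhead repressor, Psen2, a subunit of gamma-secretase, Atp1b1, of the sodium pump, and Scin, which severs actin, were lower. The 2 effects were called different for all 13 in each of 19 fits with other settings or 1 library less. The 13 were picked by opposite calls in these same libraries, so that outcome was largely set by the choice. The opposite calls themselves were less stable, and among the 13 genes Cd82 alone kept both of them in every such fit. Under FGF18 the call was lost without WT FGF18 replicate 1 for Anapc7 (0.47) and Scin (-1.10), without replicate 2 for Ccdc34 (0.36) and Scin (-1.21), and without replicate 3 for Col6a2 (-0.27) and Atp1b1 (-0.31). It was lost without FGFR3/4KO FGF18 replicate 1 for Anapc7 (0.40), Atp1b1 (-0.37) and Psen2 (-0.61), without replicate 2 for Col6a2 (-0.38), Atp1b1 (-0.48), Ccdc34 (0.35) and Scin (-1.17), and without replicate 3 for Psen2 (-0.65) and Scin (-1.11). Without FGF18, at least 1 of the 6 vehicle libraries decided the call of Alb, Fam20c, Foxn3, Hsph1, Psen2, Ran and Rfc2, with log2 values in the fits that lost it of 1.51 to 2.05 for Alb, 0.31 to 0.49 for Fam20c, 0.46 to 0.67 for Foxn3, 0.91 for Psen2, -0.47 to -0.36 for Hsph1, -0.42 to -0.32 for Ran and -0.51 for Rfc2. Other settings also ended some of these calls. Of 13 fits with other settings or 1 library less, the call without FGF18 held in 3 for Foxn3, 6 for Ran and 7 for Fam20c. It held in 8 for Hsph1, 9 for Alb and 12 each for Psen2 and Rfc2.

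Alb, the serum albumin gene and a hepatocyte marker, was the last of the 13, with 7, 27 and 23 reads in WT and 0, 5 and 6 in FGFR3/4KO RCS under FGF18, and 4, 7 and 2 against 15, 7 and 21 with vehicle. Its differences were -2.34 ± 0.59 with FGF18 and 2.01 ± 0.60 without it. The 13 hepatocyte markers together summed to 92.8 to 151 CPM in the WT FGF18 and 97.3 to 108 CPM in the FGFR3/4KO FGF18 libraries, and Ftcd, the other tested one, did not pass the test (0.16). The part of cells or RNA from elsewhere in the Alb reads was not tested.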

How the data were processed

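QuantSeq 3′ libraries of RCS were made with 3 replicates in each of 4 groups. The deposited values are raw read counts per gene. The authors trimmed reads with Trim Galore, aligned them with STAR to rn6 and counted them with htseq-count, and versions are not given in the sources used here. The methods name a human annotation, while the identifiers are those of rat Ensembl genes. Summary lines of the counter (no feature, low quality and the like) were removed.

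The software was R 4.3.3 with edgeR 4.0.16. The filter filterByExpr (minimum count 10, minimum total 15) chose the genes, TMM scaled the libraries, and genes were tested by the quasi-likelihood test in 1 model of the 12 libraries. The contrasts were FGFR3/4KO against WT with FGF18, the same with vehicle, and their difference. P-values were adjusted by the Benjamini-Hochberg method over all genes tested and called under 0.05. Standard errors are the log2 fold change divided by the root of the F statistic. CPM values were computed from the counts. The labels and the methods call the replicates biological, without saying what separates them, and p-values measure the spread between these libraries of 1 line or clone. An exact permutation test of 3 against 3 libraries cannot give a p below 0.1, so none was used. Replicates of a group differed by more than counting noise and were kept as separate samples.

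In counts simulated for the FGF18 contrast over 7124 genes with 200 changed, 98.1% of the changes of log2 size 2 and 63.8% of those of log2 size 1 were recovered, and 5.75% of calls were false. The simulation gave every gene the same spread beyond counting noise. Its share of changed genes was far below the 33.9% called in the data. It therefore checked that the procedure ran and did not measure recovery or false calls in the real contrast.

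The members, gene lists and the rule for named genes were chosen with earlier results of these data known. The rule took the 10 highest and 10 lowest called genes whose libraries did not overlap, 5 in each direction of those called alike in both media and of those with a called difference between effects, every gene called in opposite directions, and up to 4 called members of each list, with 10 genes given by name. Other list members given as examples were chosen after their values were seen. Alternatives were other normalizations, filters and tests (DESeq2 1.42.0 among them), a model of the 6 FGF18 libraries, a replicate block, and leaving out each library in turn.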

Additional observations from a re-analysis of the deposited data

Results flagged for a closer look

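The genotype difference changed with FGF18 in 802 genes, by the test of the difference itself in edgeR's quasi-likelihood model, which shares libraries with both genotype contrasts. The values that follow are log2 differences between the genotype effects with and without FGF18 for the named genes among them. Among genes of growth control and the cell cycle they were -2.74 for Phlda1, -3.71 for Cdkn2b, 1.70 for Foxm1 and 1.59 for Kifc1. Among genes of DNA replication and repair they were 1.36 for Mcm4, 1.38 for Asf1b, 1.08 for Rad18 and 1.03 for Rfc2. For protein synthesis and transport they were 0.70 for Lyar, 0.93 for Vars, 0.78 for Eprs, 1.0 for Kdelr2, 0.92 for Ran and 0.89 for Hsph1. For the matrix and the enzymes that modify it they were 0.79 for Fmod, -1.71 for Col6a2, 0.76 for Fam20b, 0.97 for Ugdh and -1.24 for Fam20c. At the cell surface and cortex they were -2.94 for Flot1, -1.72 for Alcam, -2.38 for Cd82, -1.37 for Atp1b1, -4.51 for Scin and -1.88 for Psen2. For lysosomes and autophagy they were -1.39 for Lamp2, -0.73 for Psap, -1.14 for Sqstm1 and -1.87 for Flcn. The remaining values were 2.62 for Tdrd5, -1.99 for Celf5, 1.45 for Sh2b2, -1.22 for Foxn3, 1.46 for Anapc7, 0.96 for Ccdc34 and -4.35 for Alb. Leaving out 1 library ended the call in at least 1 fit for 9 of them, at -1.06 for Alcam without FGFR3/4KO vehicle replicate 1, -1.70 for Flcn without the same library, -1.30 to -1.08 for Lamp2 without WT vehicle replicate 1, WT FGF18 replicate 2 or FGFR3/4KO FGF18 replicate 2, and 0.78 to 0.83 for Vars without WT vehicle replicate 2, WT FGF18 replicate 2 or FGFR3/4KO vehicle replicate 1. The other 5, which lost it without any of 5 to 9 different libraries, were Celf5 (-2.08 to -1.86), Kdelr2 (0.85 to 1.07), Lyar (0.62 to 0.75), Rad18 (0.92 to 1.17) and Ugdh (0.76 to 0.97). In Scin, WT RCS with vehicle had a mean of 1.91 CPM, under the level of 3 reads in those libraries, so the size of its difference depends on the model.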

How the results depend on the processing

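No call of a named gene reversed under any alternative run. Which direction held more genes under FGF18 did depend on the processing. The main run had 1247 higher and 1253 lower genes, the filter of 1 CPM 1394 and 1266, and upper-quartile normalization 1145 and 1391. Under FGF18 the number of genes higher in FGFR3/4KO RCS ran from 1054 with DESeq2 to 1394 with the filter of 1 CPM, and the number lower from 977 with DESeq2 to 1391 with upper-quartile normalization. A model of the 6 FGF18 libraries alone called 1069 and 1063. Requiring a log2 fold change of at least 1 left 507 and 593. Leaving out 1 library gave 1076 to 1308 higher and 968 to 1146 lower genes with FGF18, 421 to 503 higher and 258 to 353 lower genes with vehicle, and 304 to 513 more positive and 256 to 367 more negative differences between effects. The lower genes with vehicle numbered 294 without WT vehicle replicate 2, 259 without FGFR3/4KO vehicle replicate 1 and 258 without FGFR3/4KO vehicle replicate 3. Under FGF18, 17 of the 83 named genes lost their call in at least 1 fit with a library left out. Beside those given with their values above, these were Creg1 (-1.31 to -0.97), Fh (0.58 to 0.60), Lsg1 (0.53 to 0.60), Slc46a3 (-1.06 to -0.81), Tmed7 (0.71 to 0.86), Txndc11 (0.70 to 0.86), Ugdh (0.46 to 0.61) and Vmp1 (-0.48). The causes were not tested.

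Replicate numbers are shared by the groups, but no source says what they mark, and same-numbered FGF18 libraries deviated together with correlations of -0.211, -0.044 and -0.129, so that the numbers were not taken as pairs. A replicate block in the model gave 1173 higher and 1170 lower genes with FGF18, 539 and 375 with vehicle, and 363 and 311 for the difference between effects. It ended the call of 0 named genes under FGF18, of 5 with vehicle and of 2 for the difference between effects.

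Depth limits the genes with few reads: 3 reads stand for 2.459 to 3.955 CPM in the FGF18 libraries and for up to 8.498 CPM in FGFR3/4KO vehicle replicate 2, the shallowest library.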
